A study of Caenorhabditis elegans with 2 samples.

Results

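The 10 genes described here act in the unfolded protein response (UPR) and in protein folding in the endoplasmic reticulum (ER). They were 3 sensors of ER stress (ire-1, pek-1 and atf-6), 1 transcription factor (xbp-1) and 6 chaperones or foldases (hsp-3, hsp-4, crt-1, pdi-1, pdi-2 and pdi-6), out of 19985 protein-coding genes in the annotation. ATF-6 is both a sensor and a transcription factor, and its gene was counted only as a sensor. The genes were grouped by role with earlier results of these data known, so the position and the signal rank of their peaks, which set the choice, are given as a description. A peak of the pooled list belonged to a gene when its summit lay inside the gene or within 3 kb of one of its transcript starts. By this rule 56 of the 30000 pooled peaks belonged to the 10 genes, and 7 of these were among the 530 peaks that the authors kept after thresholding on the irreproducible discovery rate (IDR peaks).

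The study mapped sites of AHA-1 in Caenorhabditis elegans by chromatin immunoprecipitation and sequencing (ChIP-seq). AHA-1 is the worm counterpart of mammalian ARNT, the shared partner of the hypoxia factor HIF and of the aryl hydrocarbon receptor. The single group was 2 biological replicates of whole L4 larvae, males and females pooled, of strain OP124 with genotype unc-119(ed3) III; wgIs124, whose inserted transgene carries eGFP-tagged aha-1. Both replicates carry the same mutation and transgene, no other genotype, stage or treatment was measured, and whole animals mix all tissues. The antibody is labelled aha-1 although the target is eGFP-aha-1, and the labels do not say how the level of the tagged protein compares with that of the native one. Each list (replicate 1, replicate 2 and pooled) held 30000 peaks, with the peak caller's signal of ChIP against control for each. The lists give no read numbers and the depth behind a peak is unknown. The scale of the signal is not stated either, so peaks are compared by their rank within a list, where 1 is the strongest.

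When unfolded protein builds up in the ER, the kinase and nuclease IRE-1 cuts the xbp-1 mRNA so that, once rejoined, it encodes an active bZIP factor, the kinase PEK-1 (worm PERK) slows translation, and ATF-6 is, in mammals, cut loose from the membrane to enter the nucleus. The targets of this response include the HSP70 chaperones of the ER, HSP-3 and HSP-4 (worm BiP), the calcium-binding lectin chaperone calreticulin (CRT-1) and protein disulfide isomerases, which form and reshuffle disulfide bonds. In mammals, promoters of such genes carry ER stress elements, CCAAT and CCACG with 9 bases between them, and XBP1 binds sequences with an ACGTG core. ARNT dimers also bind short ACGTG or GCGTG cores, so the letters of the sites of both kinds of factor overlap.

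Among the 10 genes, the strongest peaks were at xbp-1 and at the folding genes crt-1, pdi-2 and pdi-6, followed by the sensor atf-6 and by hsp-3. This did not hold for folding genes as a class. The folding gene hsp-4, at rank 5100, stood below all 3 sensors. Of 15 further ER chaperones and foldases, 1 had an IDR peak, and the median rank of their strongest peak was 6652. IDR peaks stood at 6 of the 10 genes: xbp-1, crt-1, pdi-2, pdi-6, atf-6 and hsp-3. Over all protein-coding genes, 4.24% had an IDR peak by the same rule. Since signal is what ranked these peaks and results were known when the genes were chosen, this difference is a description without a test. Any pooled peak at all was found at all 10 genes and at 82.6% of protein-coding genes. By role, 1 of 3 sensors, the 1 factor, and 4 of 6 chaperones and foldases had an IDR peak. The sensor with an IDR peak was atf-6, so the sensor and factor counts and the sensor median depend on where atf-6 is placed. The median rank of the strongest peak was 1298 for the sensors (299 to 3703) and 310 for the chaperones and foldases (101 to 5100), so the ranges of these roles overlapped. With the distance cut to 1 kb, the strongest ire-1 peak had rank 2790, which was then the sensor median.

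The DNA around 6 of the 7 IDR summits is shown because the comparisons below rest on the letters it carries or, at atf-6, lacks. The sequences are from the RefSeq copy of assembly WBcel235 (ce11), 5′ to 3′ in the direction of the gene, and cover 50 bp on each side of the summit (for hsp-3 also the bases up to 140 bp before the start), with at most 30 bases after a transcript start. Capitals mark every ACGTG or GCGTG core, CCAAT and CCACG, on either strand, and a match on the other strand shows as its reverse complement.
xbp-1 (chrIII:4193741-4193838, plus strand): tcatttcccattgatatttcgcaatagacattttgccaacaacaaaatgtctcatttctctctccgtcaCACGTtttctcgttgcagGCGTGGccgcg
crt-1 (chrV:6100768-6100868, minus strand): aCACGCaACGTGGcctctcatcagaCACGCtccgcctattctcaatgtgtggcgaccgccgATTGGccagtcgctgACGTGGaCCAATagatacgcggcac
pdi-2 (chrX:4524100-4524184, plus strand): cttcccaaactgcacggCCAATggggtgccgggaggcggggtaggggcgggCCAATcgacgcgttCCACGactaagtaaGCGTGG
pdi-6 (chrX:7068534-7068608, minus strand): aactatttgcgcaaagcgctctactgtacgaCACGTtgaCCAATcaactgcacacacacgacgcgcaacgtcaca
hsp-3 (chrX:6092135-6092264, minus strand): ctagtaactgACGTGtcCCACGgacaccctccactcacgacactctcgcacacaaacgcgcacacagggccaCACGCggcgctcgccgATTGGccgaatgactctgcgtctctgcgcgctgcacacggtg
atf-6 (chrX:12480613-12480713, plus strand): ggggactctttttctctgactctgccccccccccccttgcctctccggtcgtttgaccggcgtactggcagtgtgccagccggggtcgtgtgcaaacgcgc

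The factor gene xbp-1 (WBGene00006959, chrIII:4193809-4195358, plus strand) had the strongest peak of the 10. It spanned chrIII:4193633-4193948 with its summit at 4193791, 18 bp before a transcript start and outside the gene. It ranked 48 in the pooled list with a signal of 67.4, 191 in replicate 1 (signal 19.1) and 23 in replicate 2 (signal 49.8), so it was among the strongest 530 of both. In all, 0.435% of protein-coding genes had a pooled peak ranked as high or higher by the rule. The summits in the replicates lay 15 bp and 10 bp from the pooled summit. In the sequence above, an ACGTG core is centred 21 bp and a GCGTG core 39 bp past the summit, just inside the transcript. The other gene within the rule for this peak was dnj-16, whose start was 2243 bp away.

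A second IDR peak of xbp-1 lay at the other end of the gene. Its summit, at 4195396, was 38 bp past the annotated end of xbp-1 and 1575 bp from its nearest start. It ranked 437 (signal 27.3), 352 in replicate 1 (signal 15.4) and 339 in replicate 2 (signal 18). The replicates placed it differently: the summit of replicate 2 was 3 bp away and that of replicate 1 was 145 bp away, next to a weaker pooled peak of rank 1826. Neither core (ACGTG or GCGTG) and no CCAAT lay within 50 bp of this summit. The next gene, asd-1, starts 1889 bp downstream of it, so xbp-1 was still the nearest protein-coding start.

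The 3 IDR peaks most like the main xbp-1 peak in rank were at genes of other pathways. Likeness was the sum of the absolute log2 differences of rank over the pooled list and both replicates, across the IDR peaks matched in both. The closest was the peak nearest the start of mdh-1, a malate dehydrogenase gene, with a sum of 0.955 and ranks of 57, 173 and 34 in the pooled list and in replicates 1 and 2. The next were nearest Y17G9B.5 (sum 1.26, ranks 33, 232 and 17) and the ribosomal protein gene rps-1 (sum 1.30, ranks 35, 111 and 24).

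Among the folding genes, crt-1 (WBGene00000802), the calreticulin gene, had the highest rank. Its peak (chrV:6100660-6100975, summit 6100818, 276 bp before the start) ranked 101 with a signal of 47.5, 65 in replicate 1 (signal 29.2) and 296 in replicate 2 (signal 18.9), and the replicate summits were 2 bp and 16 bp away. Its window was also the richest in cores of the 7, with 2 ACGTG and 2 GCGTG within 50 bp of the summit. One of the ACGTG cores stood in TGACGTG, the sequence of the mammalian XBP1 type of site, which was present at 2.45% of all IDR summits. A CCAAT lay 2 bases after it on the same strand (centre 35 bp from the summit), and a further CCAAT lay on the other strand, 13 bp from the summit. Y38A10A.11, whose start was 1939 bp away, also met the rule for this peak.

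The disulfide isomerase gene pdi-2 (WBGene00003963), whose product also serves as a subunit of collagen prolyl hydroxylase, had its summit 5 bp before the start (chrX:4523992-4524307, summit 4524150). The peak ranked 145 with a signal of 41.4, but 54 in replicate 1 (signal 30.9) and 745 in replicate 2 (signal 13.7), so replicate 2 alone would have left it outside the strongest 530. The replicate summits lay 26 bp and 54 bp away, and C07A12.7, with a start 2006 bp away, also met the rule. The window held a complete ER stress element on the plus strand, CCAAT and CCACG with 9 bases between them, centred 10 bp past the summit. Among the windows of all 530 IDR peaks this was the only one with that arrangement, and none of the other 29470 candidates had it within 50 bp. It spanned the transcript start, so it is not in the 250 bp before the start, where 0.02% of 19973 promoters had one. Only this spacing of 9 bases was searched, so other arrangements of CCAAT and CCACG, such as that at crt-1, were not counted.

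The disulfide isomerase gene pdi-6 (WBGene00015168), had a peak whose summit fell 5 bp inside its first exon, in the untranslated part (chrX:7068400-7068715, summit 7068558). It ranked 163 with a signal of 38.8, 371 in replicate 1 (signal 15.1) and 179 in replicate 2 (signal 22.5), and both replicate summits were 2 bp from the pooled one, the closest placement of the 7. An ACGTG core was centred 17 bp and a CCAAT 9 bp from the summit, with a GCGTG 42 bp away that is not in the stretch shown. No other protein-coding gene met the rule for this peak.

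The remaining isomerase gene, pdi-1 (WBGene00003962), had no IDR peak. Its strongest peak by the rule ranked 2506 (signal 13.6), 2199 bp before its start and nearest the start of C14B1.3, 96 bp away, with matches of rank 4719 in replicate 1 and 6799 in replicate 2. The next, of rank 2924, lay nearest cyn-9 and ranked 1034 in replicate 1, with no match in replicate 2. The strongest peak whose nearest start was that of pdi-1 ranked 11769, in a coding exon. Of the protein disulfide isomerase genes among the members, pdi-2 and pdi-6 thus had an IDR peak and pdi-1 had none. Isomerase genes outside the members are counted below with the further ER chaperones and foldases, where only uggt-2 had an IDR peak.

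The ER HSP70 genes hsp-3 and hsp-4 differed in the same way. At hsp-3 (WBGene00002007) the peak chrX:6092027-6092342, with its summit at 6092185, lay 61 bp before the most upstream start and ranked 458 with a signal of 26.8. It ranked 187 in replicate 1 (signal 19.3) and 2809 in replicate 2 (signal 9.15), the widest gap of the 7. In replicate 2 the strongest peak at hsp-3 was another, of rank 1727, nearest the start of C15H9.5, which at 1115 bp also met the rule for the IDR peak. At hsp-4 (WBGene00002008) the strongest peak ranked 5100 with a signal of 10.7 and lay 287 bp past the end of the gene, and that nearest a start, 18 bp from an internal one, ranked 6700 (12034 in replicate 1 and 16072 in replicate 2). For hsp-4, 27.8% of protein-coding genes had a peak ranked as high or higher, against 3.66% for hsp-3.

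The sequence before these genes held cores at genes with and without an IDR peak. Stretches of hsp-4 and pek-1 are shown because they have no IDR peak but hold cores, in the same direction and with the same marks as above, and lie before the most upstream start.
hsp-4 (chrII:7352700-7352785, minus strand): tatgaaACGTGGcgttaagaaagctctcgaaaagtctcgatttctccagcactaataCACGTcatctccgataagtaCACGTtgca
pek-1 (chrX:11414902-11414977, minus strand): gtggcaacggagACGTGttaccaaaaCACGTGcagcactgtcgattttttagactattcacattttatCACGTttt

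Within 250 bp before its most upstream start, hsp-4 had 3 ACGTG cores, 1 of them in TGACGTG on the other strand beginning 83 bp before the start. The 250 bp before hsp-3 also had TGACGTG, beginning 132 bp before the start and outside the 50 bp around its summit, besides 2 GCGTG. Of the 19973 promoters of this length, 2.39% held TGACGTG, and both HSP70 genes had it. The pek-1 promoter had 4 ACGTG matches, a pair of them from 1 CACGTG, which reads the same on both strands, beginning 64 bp before the start. CACGTG was in 4.94% of promoters. An ACGTG or GCGTG lay in this stretch of 8 of the 10 genes and in 35.9% of all promoters, and xbp-1 and atf-6, which both had IDR peaks, were the genes without one. These matches describe letters and show no binding site.

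Of the sensors, atf-6 (WBGene00000222) had an IDR peak. It spanned chrX:12480505-12480820 with its summit at 12480663, 285 bp before the start, and no other protein-coding gene met the rule for it. It ranked 299 with a signal of 31, 129 in replicate 1 (signal 22) and 837 in replicate 2 (signal 13.2), and in replicate 2 a different peak, 1875 bp before the start, was stronger at rank 680. The window had neither core and no CCAAT, but a run of C and a GC content of 66.3%. The stress kinase genes stood lower. At ire-1 (WBGene00002147), which covers the longest stretch under the rule, 15966 bp, the strongest of 8 peaks ranked 1298 (signal 17.2), 1428 bp before a start, with 5516 in replicate 1 and 1980 in replicate 2. At pek-1 (WBGene00003970) the strongest of 4 ranked 3703 (signal 11.9) in a coding exon, 3035 bp past the start, and had a match of rank 2501 in replicate 1 and none in replicate 2.

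**Figure D1:**
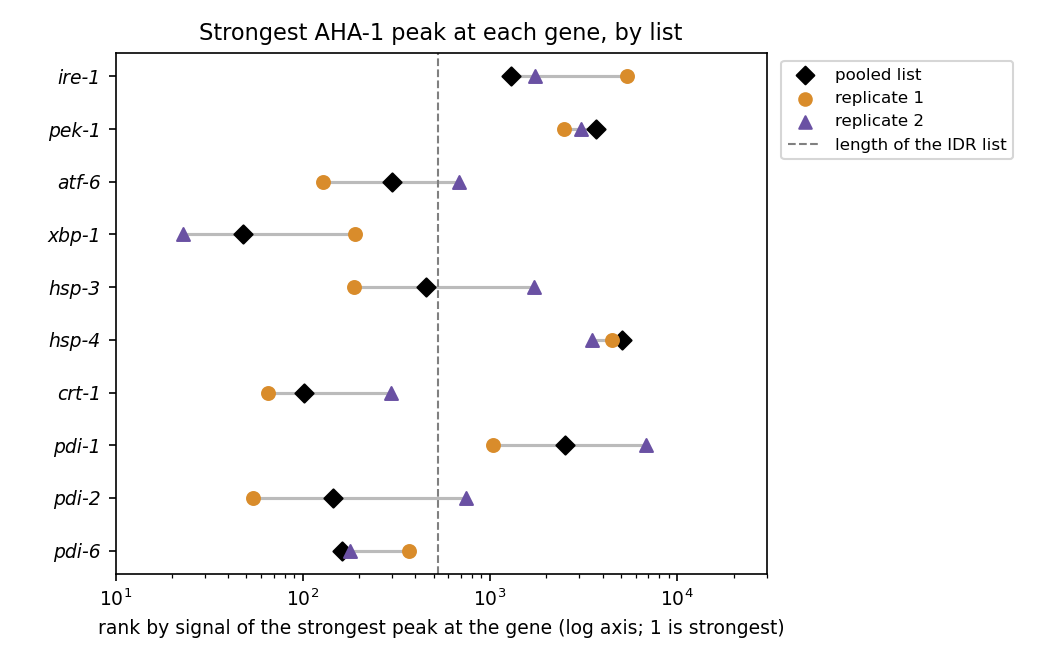
Rank by signal of the strongest peak at each gene on a log axis, in the pooled list (diamonds), replicate 1 (circles) and replicate 2 (triangles), with a dashed line at the 530 peaks of the IDR list. The xbp-1, crt-1 and pdi-6 symbols all lie to the left of the line, those of atf-6, hsp-3 and pdi-2 cross it, and those of ire-1, pek-1, hsp-4 and pdi-1 all lie to the right.

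How the replicates bore on these peaks was read from the rank of the matching peak, taken as the strongest that overlapped by at least 1 bp. All 7 IDR peaks had a match in both replicates, as did 526 of all 530 IDR peaks. For 4 of the 7, 2 at xbp-1 and 1 each at crt-1 and pdi-6, the match was among the strongest 530 of both replicates, which also held for 234 of all 530 IDR peaks (44.2%). These peaks were called on the pooled reads of the same replicates, so a match is not independent support. By gene, 3 of the 10 had such a peak against 1.96% of protein-coding genes. From replicate 1 alone, 6 of the 10 genes had a peak among its strongest 530 (4.06% of protein-coding genes), and from replicate 2 alone 3 did (4.19%). The genes lost in replicate 2 were atf-6, hsp-3 and pdi-2, as the plot of ranks by list shows. The authors' IDR list was derived from the pooled list and the list of replicate 2, per the text deposited with the samples.

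**Figure D2:**
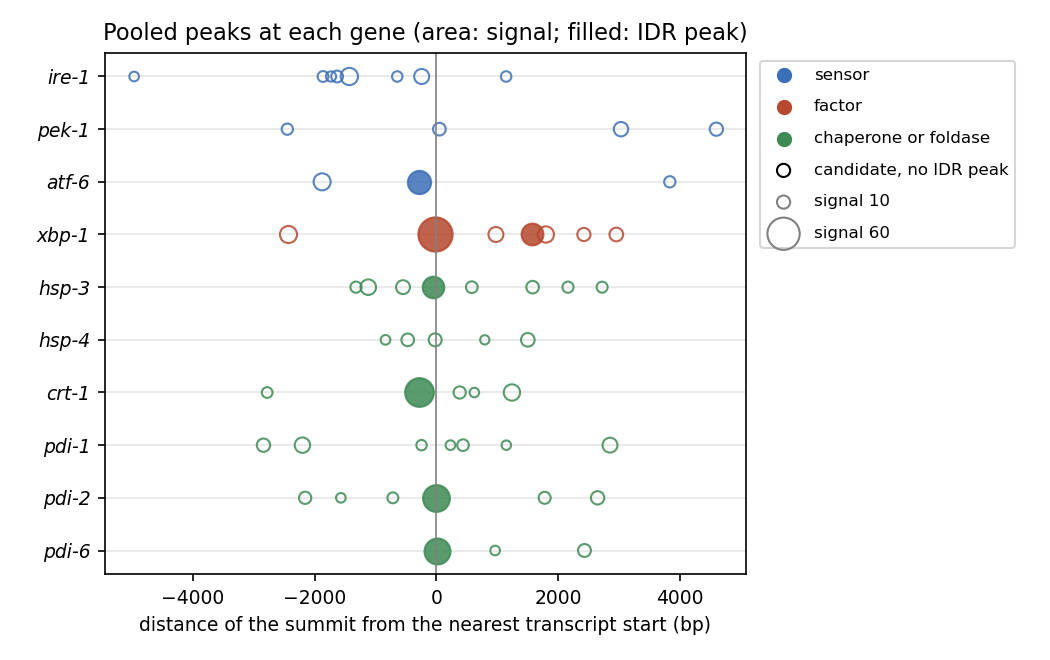
Distance of each of the 56 pooled summits from the nearest transcript start of its gene in bp (minus is upstream, and the start can be an internal one), 1 row per gene, with symbol area proportional to signal, colour by role and IDR peaks filled. The filled symbols lie within 300 bp of a start, except the second one at xbp-1, 1575 bp away.

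Most IDR peaks of the members sat close to starts, as the map of summits by distance shows. Of the 7, 6 lay within 300 bp of a start of their gene, and for all 7 the member had the nearest protein-coding start. Shares of this kind over all IDR peaks are not given here. Whether such closeness is usual for IDR peaks is therefore unknown. Among the other 49 pooled peaks, 5 lay within 300 bp, and the member had the nearest start for 27. Of these 49, 29 lay outside the gene, 9 in introns, 8 in coding exons and 3 in untranslated exons. Of the 49, 31 had a match in replicate 1, 32 in replicate 2 and 18 in both, and 4 had none. Match counts for such peaks at other genes are not given here, so whether these are usual is unknown. The pooled list was deposited as peaks and background together, as the input to the IDR step.

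The limits of the rule and of the IDR list fell as follows. Among peaks outside the gene bodies, the one nearest to the 3 kb limit on its inner side was at xbp-1, 2958 bp from the start with rank 4924. The nearest that failed the rule, beyond the limit and outside the gene, was at hsp-4, 3155 bp from the start with rank 8492. The weakest IDR peak had a signal of 25.25 and the strongest candidate that was none 25.244, so the signals on either side of the threshold nearly met. Of the 10 genes, hsp-3 (signal 26.8) stood nearest above it and ire-1 (17.2) nearest below. The rule covered a median of 6495 bp per member against 6001 bp over all protein-coding genes, and members had a median of 5.5 pooled peaks against 2.

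**Figure D3:**
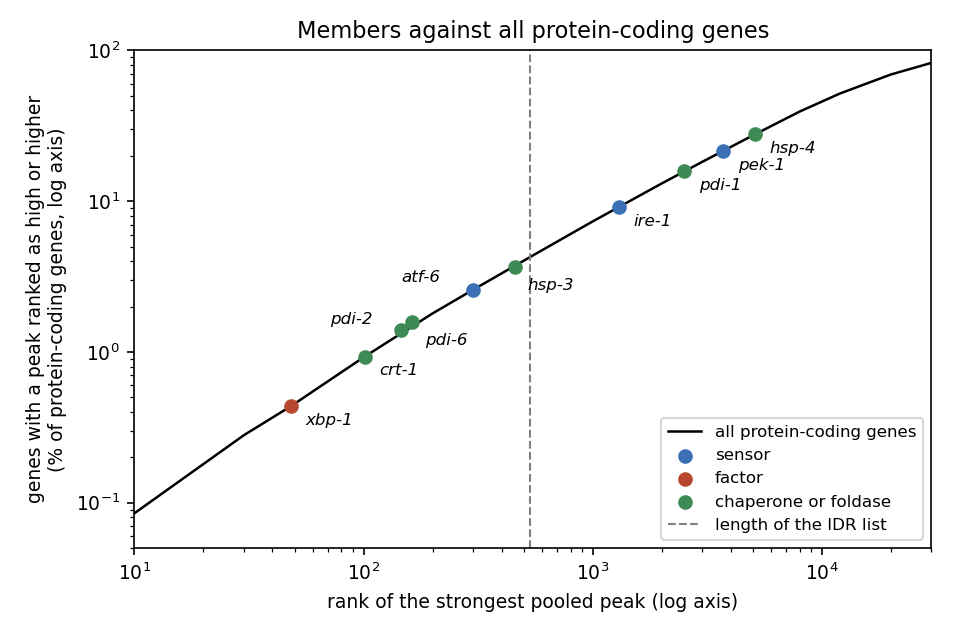
Share of all protein-coding genes with a pooled peak ranked as high or higher (percent, log axis) against rank (log axis), with the 10 genes marked on the curve in the colour of their role and a dashed line at rank 530. The genes run from xbp-1 at 0.435% to hsp-4 at 27.8%, and hsp-3 at 3.66% is the last before the dashed line.

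The cores were searched within 50 bp of each summit on both strands. ACGTG or GCGTG lay at 5 of the 7 member summits, at 49.4% of all IDR summits and at 15.8% of the other candidates. GCGTG was at 5 of 7 (27.9% of IDR summits) and ACGTG at 3 of 7 (28.9%). CACGTG, an E-box that also holds the ACGTG core, was at none of the 7 and at 7.92% of IDR summits. CCACG was at 3 of 7 (15.1%), and a core followed by G holds the reverse complement of CCACG. The median GC content of the member windows was 59.4%, against 50.5% over all IDR windows and 35.6% over the other candidates, and its part in these counts was not tested. With 100 bp on each side, 5 of the 7 summits still had a core, near the 64% of all IDR summits. At the other 49 pooled peaks of the genes, 9 had ACGTG or GCGTG.

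The search for CCAAT alone was added after the sequences had been seen, so its count is a description. It lay within 25 bp of 4 of the 7 summits, at hsp-3, crt-1, pdi-2 and pdi-6, all of them chaperone or foldase genes. Its nearest centre was 11, 13, 3 and 9 bp from the summit. At 25 bp, CCAAT was at 6.79% of IDR summits and 10% of the other candidates. Within 50 bp it was at the same 4 summits, 13% of IDR summits and 19.7% of the others. Within 100 bp it was at 6 of the 7 summits, 25.7% of IDR summits and 35.7% of the others, since atf-6 had one centred at 67 bp and the second xbp-1 peak one at -82 bp from the summit.

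**Figure D4:**
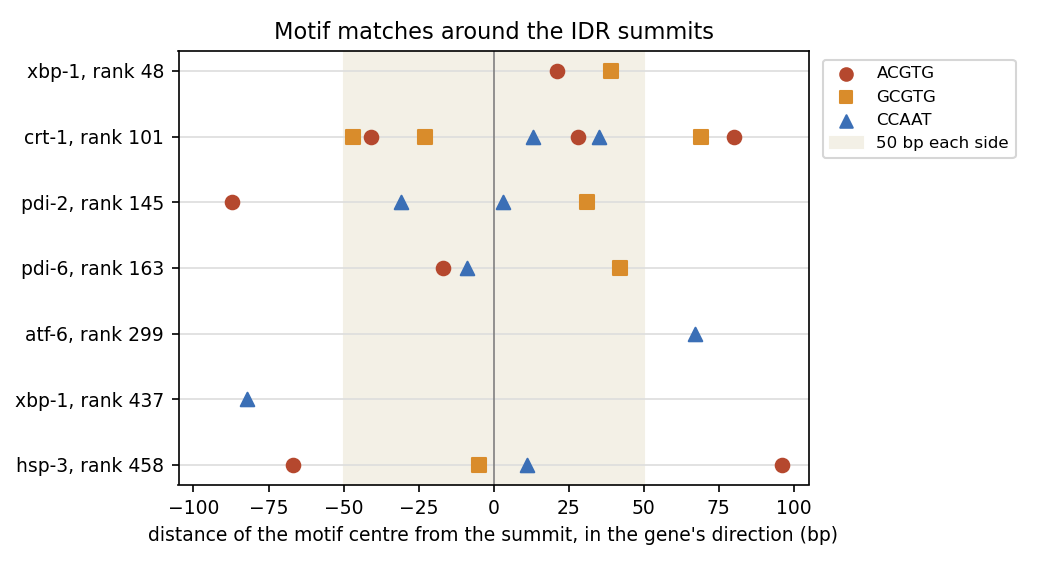
Centres of ACGTG (circles), GCGTG (squares) and CCAAT (triangles) within 100 bp of the 7 IDR summits, in bp from the summit in the gene's direction, 1 row per peak in order of pooled rank, with the 50 bp on each side shaded. The nearest triangle lies within 25 bp of the summit for crt-1, pdi-2, pdi-6 and hsp-3, and outside the shading for atf-6 and the second xbp-1 peak, whose rows have no circle or square.

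Of the 10 genes, 5 are on chromosome X (atf-6, pek-1, hsp-3, pdi-2 and pdi-6), and 4 of the 7 IDR peaks lay there. Chromosome X held 26% of all IDR peaks and 13.7% of protein-coding genes, and 5.97% of its genes had an IDR peak by the rule. The part of the chromosome in the members' count was not tested.

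Of 47 other genes of the pathway, named in 4 lists, 42 were found in the annotation: 8 further UPR signalling genes, 15 further ER chaperones and foldases, 11 genes of ER-associated degradation, which removes misfolded proteins, and 8 of N-glycosylation, which adds sugars to proteins in the ER. An IDR peak by the rule stood at 1 of the 42 (2.38%), against the 4.24% of all protein-coding genes, and 2 of the 42 had a peak among the strongest 530 of either replicate alone, so the share was near that of all genes. That gene was uggt-2, related to the glucosyltransferase that checks the folding of glycoproteins, with a peak of rank 16 (14 in replicate 1 and 19 in replicate 2) whose summit was 2073 bp before its start and nearest the start of F26H9.5. The median rank of the strongest peak was 6273 for UPR signalling, 6652 for chaperones and foldases, 7699 for ER-associated degradation and 8108 for N-glycosylation. Over all protein-coding genes with a pooled peak it was 8576, and over the 10 members 378.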

How the data were processed

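AHA-1 ChIP-seq peaks of 2 replicates of 1 group were analysed. Per the text deposited with the samples, the authors derived a list for each replicate from that replicate's alignments with a control, and the pooled list from the alignments of both. The deposited lists give a signal per peak and a −log10 q-value, which was capped at the same highest value for 928 pooled peaks, so peaks were ranked by signal. Not given in the sources used here are the aligner, the peak caller and the IDR cutoff, and read depth is unknown. Summits in ce11 coordinates were assigned to genes with Ensembl release 115 for WBcel235, the same assembly. The ce10 lists and the control were not used here.

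The 530 strongest pooled peaks were checked to be those of the IDR list. Coordinates count from 1. With no second condition and genes chosen on known results, no test was run, and counts are given beside the share of all protein-coding genes. Members and lists were chosen with earlier results of these data known. The text names all members, up to 3 other genes at their IDR peaks, up to 4 IDR genes per pathway list and the 3 most alike peaks. Of the names in the lists, atf-5, edem-1, edem-2, edem-3 and ost-3 were not in the annotation. Gene assignment was checked on simulated data (Python 3.11.15). For motifs, only the pattern of the ACGTG and GCGTG cores was tried on planted cores. The motif positions, the windows and the other motifs were not checked in this way. Alternatives were other distances, numbers of peaks, windows and each replicate alone.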

Additional observations from a re-analysis of the deposited data

How the results depend on the processing

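The count of members with an IDR peak stayed at 6 with the distance set to 1 kb (against 2.44% of all genes). It was also 6 with a window from 1 kb upstream to 500 bp downstream (2.09%), with the nearest start only (2.42%) and with the strongest 1060 peaks (7.65%). With the stronger 265 it was 4 (2.34%). Leaving out each replicate gave 3 to 6 members, 0 to 1 sensors, 2 to 4 chaperones and foldases, and a median best rank of 281 to 1236 against 378. Ranking by q-value is no separate check, since 928 pooled peaks tie at its highest value and signal then orders them. The factor count stayed at 1 throughout. With the stronger 265 peaks there were 0 sensors. The other pathway genes with an IDR peak numbered 1, but 0 with the 1 kb distance, the promoter window and the nearest start only, 4 with 1060 peaks (against 7.65% of all genes) and 2 from either replicate alone. Requiring summits within 100 bp left 3 rather than 4 member peaks among the strongest 530 of both replicates. The share of member summits with a core was 71.4% within 50 bp (49.4% of all IDR summits), 57.1% within 25 bp (30.8%) and 71.4% within 100 bp (64%). At the summits of either replicate it was 71.4% to 85.7%, for which no share over all peaks is given. The strongest peak of pdi-1 had rank 11769 with the 1 kb distance, the promoter window and the nearest start only. With the 1 kb distance and the promoter window, ire-1 moved from 1298 to 2790 and hsp-4 from 5100 to 6700, and with the promoter window pek-1 moved from 3703 to 7572. No paired analysis was possible because there is 1 group. No read depth is given, so the precision of a single rank is limited to what the 2 replicates show.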
